A study of Mus musculus with 2 samples.

Results

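The miRNA genes of 3 imprinted chromosome regions, 5 of the 1973 miRNA genes counted, were examined in the neural tube of the mouse embryo. They were chosen by name and matched by Ensembl identifier: Mir483 at Igf2, Mir675 at H19, Mir335 at Mest, and Mir296 and Mir298 at the Gnas locus. The choice was made with earlier results of these data known, so their levels are given as a description and no test is attached to them. The neural tube, the tissue that forms brain and spinal cord, was dissected from B6NCrl embryos at embryonic day 14.5, with no treatment, transgene or mutant allele named. The 2 small RNA libraries form 1 group and differ in the mother: replicate 1 is from pup 1 of dam 1 and replicate 2 from pup 1 of dam 2. The labels call each sample a single neural tube and yet give its sex as pooled, which is not settled here. The question these libraries can address is which of the 5 genes the tissue expressed, how strongly, and how far the level differed between the pups of the 2 dams.

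Genomic imprinting leaves a gene active from the allele of only one parent. In most tissues Igf2, a fetal growth factor, is active from the paternal allele and H19, a noncoding RNA next to it, from the maternal allele. Mest is another gene active from the paternal allele, and Gnas, which encodes a G protein subunit, lies in a cluster of maternally and paternally active transcripts that includes the antisense RNA Nespas. A miRNA is cut from a hairpin in a longer transcript, so a miRNA inside a host gene can be made from the host's RNA. The seed, bases 2 to 8 counted from the 5′ end, is the main stretch that pairs with target mRNAs. The counts are per hairpin gene and separate neither the 2 arms of a hairpin nor the 2 parental alleles.

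The hairpins are shown first, because they fix what a read of each gene can be. They are RefSeq sequences on GRCm38.p6, written 5′ to 3′ with both mature arms in capitals, and 5 of 5 genes were matched by symbol.
Mir483: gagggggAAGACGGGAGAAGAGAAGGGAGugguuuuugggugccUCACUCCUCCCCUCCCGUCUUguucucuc
Mir675: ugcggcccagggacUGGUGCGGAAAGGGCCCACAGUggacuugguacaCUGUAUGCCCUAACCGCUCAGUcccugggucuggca
Mir335: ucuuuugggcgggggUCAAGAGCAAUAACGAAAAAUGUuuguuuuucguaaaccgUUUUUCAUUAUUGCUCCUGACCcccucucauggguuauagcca
Mir296: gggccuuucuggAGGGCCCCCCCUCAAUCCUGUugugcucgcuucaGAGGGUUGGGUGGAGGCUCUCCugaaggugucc
Mir298: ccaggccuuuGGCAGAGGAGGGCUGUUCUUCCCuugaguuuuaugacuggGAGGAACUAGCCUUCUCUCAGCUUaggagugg
The longest unbroken Watson-Crick match between the arms of a hairpin was 10 bases in Mir483, 9 in Mir335, 5 in Mir675, 5 in Mir296 and 4 in Mir298. These are matches of sequence and need not be pairs of the folded hairpin. No stretch of 18 bases of these hairpins, on either strand, was found in any other of the 1005 hairpins of the table. The search bears on the counts because reads that fit several genome positions were counted for no gene. The hairpins searched are fewer than the 1973 miRNA genes counted, and the rest of the genome was not searched.

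The 10 mature arms follow with the seed in capitals, to show which of these genes could share targets through a common seed.
miR-483-5p: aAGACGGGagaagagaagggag
miR-483-3p: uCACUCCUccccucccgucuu
miR-675-5p: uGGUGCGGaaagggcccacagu
miR-675-3p: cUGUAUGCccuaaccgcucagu
miR-335-5p: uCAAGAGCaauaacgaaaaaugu
miR-335-3p: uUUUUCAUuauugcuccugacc
miR-296-5p: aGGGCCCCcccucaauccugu
miR-296-3p: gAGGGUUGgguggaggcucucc
miR-298-5p: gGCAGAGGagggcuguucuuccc
miR-298-3p: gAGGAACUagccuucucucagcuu
The mature sequences compared do not cover all counted genes. No arm shared its seed with another member or with any other gene among the 1738 mature sequences of the table, of which 68.0% had a seed found in no other gene. Mir296 and Mir298, 378 bases apart, therefore carry different seeds in both arms, and so do Mir483 and Mir675. Base composition set Mir335 apart from the rest. Its arms held 30.4% (5p) and 36.4% (3p) G and C, whereas the other 8 arms lay between 50.0% and 68.2%, against a median of 52.2% over all mature sequences.

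Mir675 and Mir483 lie on the minus strand of chromosome 7 with 77776 bases between them. Positions are on GRCm38, also called mm10. Mir483, identifier ENSMUSG00000070140.1, spans 142654924 to 142654996 and falls in an intron of all 7 overlapping Igf2 transcripts, intron 2 in 6 of them, and in intron 3 of the overlapping gene model Gm49394. Mir675, ENSMUSG00000076275.1, spans 142577064 to 142577147 and lies within an exon of 3 of the 4 overlapping H19 transcripts, exon 1 in 2 of those, and in an intron of the fourth. Mir335, ENSMUSG00000065501.1, spans 30741299 to 30741396 on the plus strand of chromosome 6 and is intronic in all 7 overlapping Mest transcripts. Mir296, ENSMUSG00000065521.1, at 174267047 to 174267125, and Mir298, ENSMUSG00000065410.1, at 174267504 to 174267585, share the minus strand of chromosome 2. Neither overlaps another annotated gene. The closest is Nespas on the same strand, 13652 bases from Mir298 and 14112 from Mir296, followed by Gnas on the other strand.

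Levels are counts per 1000000 sense counts on miRNA genes (CPM), from 3172235 such counts in replicate 1 and 3671915 in replicate 2. Reads that fit several positions were 32.4% and 33.3% of each library. A count of 0 would allow up to 0.946 CPM in replicate 1 and 0.817 in replicate 2. No molecular identifiers are stated, so this limit and all intervals below cover counting error only. Counts of different miRNAs were not calibrated against each other, so the order of the genes describes reads.

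Mir335, the miRNA of the Mest intron, dominated the set. It had 61345 counts in replicate 1 and 81057 in replicate 2, or 19338 CPM (exact 95% interval 19187 to 19490) and 22075 CPM (21925 to 22226). It ranked 8 and 6 among all miRNA genes in these libraries, and its mean of 20706 ± 1935 CPM (SD, n = 2) was the seventh highest. Genes with copies lose the reads that fit several positions. All ranks and shares given here therefore hold among the counted reads and do not rank the miRNAs of the tissue. The 5 genes together held 2.32% (exact 95% interval 2.30 to 2.33) of the counts of replicate 1 and 2.68% (2.66 to 2.69) of those of replicate 2, and Mir335 made up 83.4% and 82.4% of this share. Without it the other 4 genes held 0.384% and 0.471%.

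The Gnas-locus pair was the next level down. Mir298 had 7422 and 9014 counts, or 2339.7 and 2455 CPM, with a mean of 2397 ± 81.4 (SD, n = 2). Mir296 had 4509 and 7126 counts, or 1421 and 1941 CPM, with a mean of 1681 ± 367 (SD, n = 2). Mir298 was above Mir296 in both libraries, and their levels did not overlap. They ranked 55 and 69 by mean CPM, well above the median of the 329 genes detected in both libraries, 170.2 CPM. Detected here means at least 10 counts in each.

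Mir483 and Mir675, the miRNAs of Igf2 and H19, were the lowest of the set and the most unequal between the pups. Mir483 had 228 counts in replicate 1 and 1109 in replicate 2, or 71.9 CPM (exact 95% interval 62.8 to 81.8) and 302 CPM (285 to 320.3). Its mean was 187 ± 163 CPM (SD, n = 2). Mir675 had 8 counts and 43 counts, or 2.52 CPM (1.09 to 4.97) and 11.7 CPM (8.47 to 15.8), with a mean of 7.12 ± 6.50. It was the only one of the 5 genes to miss the minimum of 10 counts in a library. Of the 5 genes 4 were detected, against 329 of all 1973 miRNA genes. The order Mir335, Mir298, Mir296, Mir483, Mir675 was the same in both libraries, and no neighbours in it had overlapping levels.

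**Figure D1:**
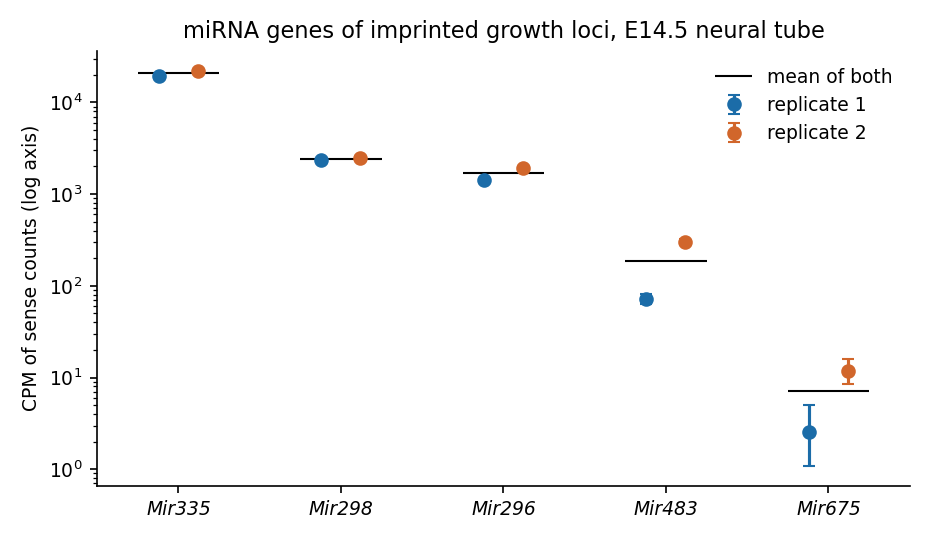
CPM of each gene on a log axis in replicate 1 and replicate 2 (points), with exact 95% counting intervals as bars where wider than the point, and the mean of both as a line. The 5 genes span 7.12 to 20706 mean CPM, and the points of Mir483 and Mir675 lie far apart while those of Mir335, Mir296 and Mir298 lie close.

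The difference between the libraries was read as the log2 ratio of replicate 1 over replicate 2 after TMM scaling (trimmed mean of M-values), which sets the bulk of the genes to equal levels. With 1 library per dam no test between dams can be made, so a gene was called when it passed 2-fold, and intervals are exact binomial intervals of the split of its counts. Of the 360 genes that reached 10 counts in either library, 12.2% passed 2-fold, 7.78% with the higher level in replicate 2 and 4.44% with the higher level in replicate 1. Of the 5 genes, 2 passed, both higher in replicate 2. Mir483 was 3.62-fold higher there, with a log2 ratio of -1.86 (95% interval -2.07 to -1.65). Mir675 was 3.81-fold higher, with a log2 ratio of -1.93 (95% interval -3.30 to -0.90), and at 8 counts against 43 its interval reached below 2-fold. In order of the ratio, from the gene most in favour of replicate 2, Mir675 stood at place 14 and Mir483 at place 16 of the 360.

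Mir335, Mir296 and Mir298 stayed within 2-fold. Mir335 had a log2 ratio of 0.02 (95% interval 0.01 to 0.04), Mir296 of -0.24 (-0.29 to -0.18) and Mir298 of 0.14 (0.10 to 0.19). These values are small beside the choice of scaling: with scaling by total counts every log2 ratio fell by 0.21, which put Mir335 at -0.19, Mir298 at -0.069 and Mir296 at -0.45. The direction for Mir335 and Mir298 is thus not fixed by these libraries. Mir483 and Mir675 stayed past 2-fold, at -2.07 and -2.14. The median log2 ratio of the 5 genes was -0.24, that of the 360 genes -0.02, and with scaling by total counts they were -0.45 and -0.23.

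**Figure D2:**
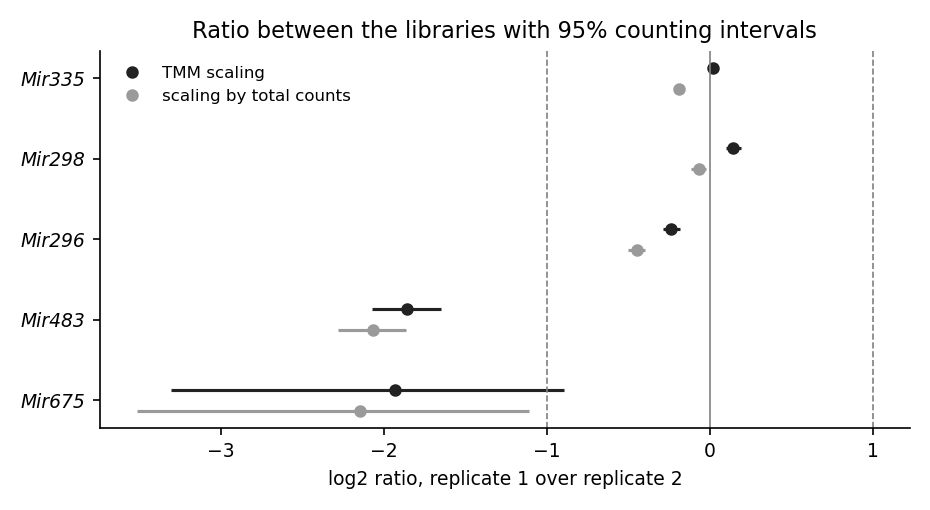
Log2 ratio of replicate 1 over replicate 2 for each gene with its exact 95% counting interval (lines), under TMM scaling (dark) and scaling by total counts (grey), with dashed lines at 2-fold. The points of Mir483 and Mir675 lie beyond the line under both scalings, and Mir335 and Mir298 change sign between them.

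Ratios of one gene to another within a library do not depend on scaling. Replicate 1 held 28.5 Mir483 counts per Mir675 count (exact 95% interval 14.2 to 66.8) and replicate 2 held 25.8 (19.02 to 35.8). The ratio in replicate 2 over that in replicate 1 was 0.905, with an interval of 0.363 to 1.98 and a difference was not detectable at the depth of Mir675. Against Mir335 the level of Mir483 was 3.68 times as large in replicate 2 as in replicate 1 (3.19 to 4.27), and that of Mir675 4.07 times (1.89 to 10.02). Against Mir298 these values were 4.005 (3.46 to 4.65) and 4.43 (2.06 to 10.9).

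The Gnas-locus pair did not keep its ratio. Replicate 1 held 0.607 Mir296 counts per Mir298 count (0.585 to 0.631) and replicate 2 held 0.791 (0.766 to 0.816). The ratio was 1.30 times as large in replicate 2 (1.24 to 1.37), more than counting error covers, for hairpins that lie 378 bases apart on one strand. Of the 10 pairs among the 5 genes, Mir483 with Mir675 was the only one whose interval held 1. That interval is wide because Mir675 had 8 counts in replicate 1, and it also holds the 1.30 of the Gnas-locus pair. The 2 pairs thus cannot be said to behave differently. Pairs of other genes were not compared, and the libraries differed beyond counting error over all detected genes, so this count is not particular to the 5 genes. With 2 libraries, the spread of such ratios between litters is unknown.

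**Figure D3:**
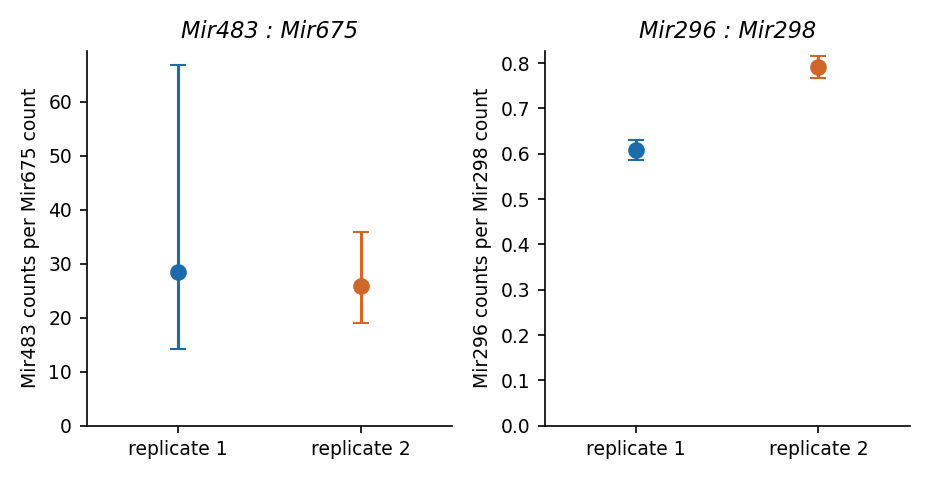
Counts of Mir483 per count of Mir675 (left) and of Mir296 per count of Mir298 (right) in each library, with exact 95% counting intervals. The Mir483 values of 28.5 and 25.8 have wide intervals that overlap, set by the 8 and 43 counts of Mir675. The Mir296 values of 0.607 and 0.791 have narrow intervals that do not.

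The tissue label was compared with marker miRNAs. Of 11 measured neural markers 8 were detected, with a summed level of 17647 CPM in replicate 1 and 15823 in replicate 2, most of it from Mir137, a miRNA of differentiating neurons. Of the 9 tested, Mir128-1 and Mir128-2 were at least 2-fold higher in replicate 1, with log2 ratios of 1.18 and 1.13, and Mir124a-2, with 4 and 13 counts, in replicate 2. The 3 gene copies of Mir124a, the neuronal miRNA, had between 4 and 23 counts in a library. Markers with gene copies (Mir124a, Mir9, Mir128, Mir219a, the Mir199 genes and Mir133a) lose reads that fit several positions, so their counts, zeros included, say little of the level of the miRNA. Markers of mesenchyme, the connective tissue around the neural tube, moved with Mir483 and Mir675. Their sum was 1197 CPM for replicate 1 against 4894 CPM for replicate 2, a 3.53-fold difference with TMM scaling. Of the 6 measured, 5 of 5 tested markers were at least 2-fold higher in replicate 2. Of all 360 genes tested, 7.78% were, and 4.44% were at least 2-fold higher in replicate 1. The 5 markers include Mir199a-2, with 1 and 37 counts, and Mir199b, with 18 and 254, to which the limit on gene copies applies. Mir143, a miRNA of smooth muscle and fibroblasts, was 3.39-fold higher and Mir214, from the transcript Dnm3os, 5.15-fold higher, beside 3.62-fold for Mir483. No mesenchymal marker was at 0 in both libraries. The part of mesenchyme in the levels of Mir483 and Mir675 was not tested, and in bulk tissue more cells of a type and more RNA per cell cannot be told apart.

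Other marker lists moved less, except one. Over all 360 genes tested, 7.78% were at least 2-fold higher in replicate 2 and 4.44% in replicate 1. The sensory cluster Mir96, Mir182 and Mir183 summed to 2109 and 15050 CPM, 6.16-fold higher in replicate 2, with 3 of 3 past 2-fold. Endothelial Mir126a was 1.77-fold higher in replicate 2, at 8443 and 17271 CPM. Leukocyte markers summed to 125 and 232 CPM, 1.61-fold higher in replicate 2, with Mir223 as the 1 of 3 past 2-fold. Erythroid markers summed to 94.3 and 113 CPM, with 1 of 3 past 2-fold, higher in replicate 1. Skeletal muscle markers summed to 45.4 and 53.1 CPM, with Mir133a-1 and Mir133a-2, a pair of gene copies, at 0 in both libraries, which is no measure of that miRNA for the reason given above. Liver Mir122 stood at 43.5 and 35.9 CPM. The part of these cell types in the levels of the 5 genes was not tested.

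**Figure D4:**
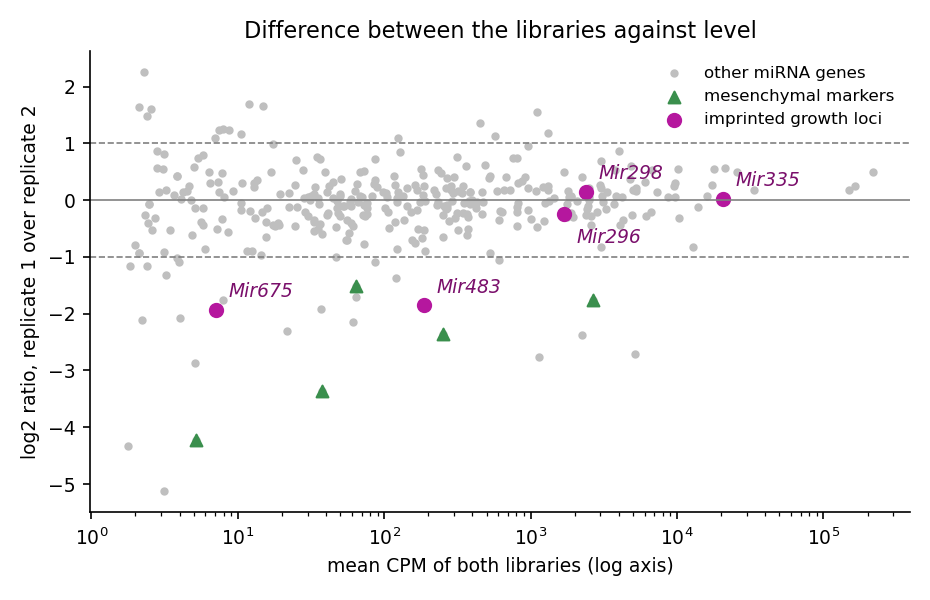
Log2 ratio of replicate 1 over replicate 2 (TMM) against mean CPM (log axis) for the 360 tested miRNA genes (grey), with the 5 imprinted-locus genes (magenta) and the 5 tested mesenchymal markers (green triangles) marked and dashed lines at 2-fold. Mir483 and Mir675 lie below -1 with all 5 mesenchymal markers, and Mir335, Mir296 and Mir298 lie near 0. Grey points below -1 include Mir96, Mir182 and Mir183 of the sensory cluster.

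The genes whose levels over the 2 libraries came closest to each detected gene were found by distance in log2(CPM + 1), which is a description over 2 points only. For Mir483 they were Mir214, at 72.5 and 433 CPM, Mir221, at 60.2 and 182 CPM, and Mir455, at 121 and 261 CPM. All 3 were higher in replicate 2, as Mir483 was, which largely follows from choosing them by level in these same 2 libraries. For Mir335 they were Mirlet7i, Mir99b and Mir487b, all 3 lower in replicate 2, so none had the slightly higher CPM of Mir335 there. Mir296 lay closest to Mir379, at 1364 and 1953 CPM, then Mir139 and Mir872. Mir298 lay closest to Mir92b, at 2499 and 2497 CPM, then Mir324 and Mir140.

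Within 1 Mb of the 5 genes, other miRNA genes were detected only around Mir335. Over all counted genes, 329 of 1973 were detected. Mir335 had 6 annotated neighbours, of which 4 were detected, all on the other strand. Mir29a, 321264 bases away, had 60.8 and 72.2 CPM and a log2 ratio of -0.03, near that of Mir335. Mir183, Mir96 and Mir182, the sensory cluster, start 571562 bases away and had log2 ratios of -2.38, -2.77 and -2.71. Mir335 itself stood at 0.02. Around Mir483 and Mir675 no other miRNA gene was detected within 1 Mb, and around Mir296 and Mir298 none either.

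Other miRNA genes of imprinted loci give the context. The Dlk1-Dio3 region of chromosome 12, whose miRNAs are made from the maternal allele, had 59 measured genes, 45 of them detected and tested. It held 6.10% and 6.28% of the counts, more than the 2.32% and 2.68% of the 5 genes. Over all 360 genes tested, 12.2% passed 2-fold, 7.78% higher in replicate 2 and 4.44% in replicate 1. Of the 45 genes of the region, 1 was past 2-fold, Mir1247 with 69 and 29 counts, higher in replicate 1. In the region 0 were 2-fold higher in replicate 2, and its median log2 ratio was -0.06. Its 3 highest genes were Mir487b at 18013 ± 2910 CPM, Mir127 at 6114 ± 1468 and Mir369 at 5268 ± 9.41 (SD, n = 2), so the highest, Mir487b, was close to Mir335 in level. The miRNA cluster in Sfmbt2, a gene active from the paternal allele in placenta, had 107 measured genes, 10 tested, and a median log2 ratio of 0.30. It was led by Mir467e at 878 ± 53.3, Mir467d at 818 ± 38.2 and Mir467c at 655 ± 9.27 CPM, below Mir296 and Mir298. Sequence shared among the genes of this cluster was not examined, and reads that fit several positions were counted for no gene. The cluster's counts may thus be too low for a comparison of level. Of its 10 tested genes 2 were past 2-fold, against 12.2% of the 360. They were Mir297a-2 with 7 and 20 counts and Mir669h with 29 and 18. Mir1247, Mir297a-2 and Mir669h were picked out once their values were known.

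Reads on the other strand of the 5 genes were nearly absent. Mir335 had 2 such reads in each library, and Mir483, Mir675, Mir296 and Mir298 had 0 in both. Over all miRNA genes the other strand held 1.26% of the counts in replicate 1 and 1.49% in replicate 2, so for the 5 genes the sense count is nearly the whole count.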

How the data were processed

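The authors deposited raw read counts per miRNA gene, 1 table per library, made from alignments to mm10 with annotation M4, according to their text notes. The aligner and trimming were not given in the sources used here. Per library there are 3 columns of counts (either, sense and other strand), and 4 rows that name no gene stayed out of library sizes. Sense counts were used, as CPM of their total. Names and positions came from GENCODE M21 (GRCm38): 1894 of 1973 identifiers matched, among them all 5 members. The replicate libraries differed beyond sampling noise (chi-square per degree of freedom 318 over 329 genes). They come from different dams, so their spread joins litter and technical differences.

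The members and gene lists were chosen with earlier results of these data known. Genes named were the 5 members, their host genes, the 3 nearest genes in level, detected neighbours within 1 Mb, the 3 highest genes of each imprinted list, seed relatives and marker genes. Mir9-1, Mir1a-2 and Mir142 were not analysed here.

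Scaling used TMM in edgeR 4.0.16 (R 4.3.3), with DESeq2 1.42.0 size factors and total counts as alternatives, and a prior count of 0.5. edgeR's quasi-likelihood test had no residual degrees of freedom. Exact intervals came from scipy 1.17.1 (Python 3.11.15). They were tested only on simulated data with counting error alone and known library sizes. That setting does not cover the spread between these libraries or the choice of scaling.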

Additional observations from a re-analysis of the deposited data

How the results depend on the processing

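In all, 65 values were recomputed under other settings, and 53 met the limit set for their kind. Ratios and medians had to keep their sign and their side of 2-fold. Levels and shares had to move by less than 1 SD, and counts of genes to stay within 1.5 times. With 2 libraries, leaving 1 out always moves a mean by less than 1 SD, so those levels and shares could not miss the limit. The SDs of Mir483 and Mir675 were nearly as large as their means. Their fall with all reads in the denominator thus met the limit, whereas that of Mir335, Mir296 and Mir298 did not. Mir483 and Mir675 stayed at least 2-fold higher in replicate 2 under scaling by total counts, DESeq2 size factors, either-strand counts and a prior count of 2, with log2 ratios from -2.07 to -1.84 and from -2.14 to -1.75. With scaling by total counts the log2 ratio changed sign for Mir335, to -0.19, and for Mir298, to -0.069, and the genes past 2-fold split into 11 higher in replicate 1 and 42 higher in replicate 2, against 16 and 28 with TMM. With all reads in the denominator the means of all 5 genes were lower, at 10891 CPM for Mir335, 883 for Mir296, 1262 for Mir298, 97.6 for Mir483 and 3.71 for Mir675, since that total holds the reads assigned to no gene. Without the 3 highest genes in the denominator the 5 genes held 5.29% of counts. With at least 1 count over both libraries 230 genes passed 2-fold (136 higher in replicate 2 and 94 in replicate 1), and with at least 100 counts 21 did (16 and 5), against 44 (28 and 16); more or fewer low genes enter. Without replicate 1 the mean of Mir483 became 302 CPM and that of Mir675 11.7, and without replicate 2 they became 71.9 and 2.52. Depth limits Mir675, with 8 counts in replicate 1. No paired analysis was possible because the libraries form 1 group.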
